A study of Mus with 2 samples.

Results

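The genes described here encode the proteins of the cytosolic ribosome and of the mitochondrial ribosome. They were taken by gene symbol from a table that the authors deposited. Symbols of the form Rpl or Rps with a digit, Rplp with a digit, or Rpsa gave the cytosolic set, without the Rps6k kinases and without processed pseudogenes, and symbols of the form Mrpl or Mrps with a digit gave the mitochondrial set. The rule found 158 genes among 8191 distinct genes of the table, 82 of them cytosolic and 76 mitochondrial. The reference annotation holds 89 and 78 protein-coding genes whose symbols fit the rule. The 9 that were listed in no cluster were Rps2, Rpl3l, Rpl10l, Rpl32l, Rpl37rt, Rpl39l, Rps23rg1, Mrpl47 and Mrpl53. The cells came from whole kidneys of C57BL/6 mice, young in 1 droplet-based single-cell library and senescent in the other, and the labels name no genetic change or treatment. The series states 10895 cells for the young and 4408 for the senescent mice. Neither the ages nor the number of mice pooled in a library are stated. Each value below is a mean signal per cell of a cluster in 1 library, on the authors' scale, so there is no SD, no n above 1 and no test between the groups.

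Cytosolic ribosomes translate the mRNAs of nearly all cellular proteins, and their proteins are made in matched amounts under control of growth signals such as mTOR. Mitochondrial ribosomes are built inside the organelle from imported, nucleus-encoded proteins. They translate only the mRNAs of the mitochondrial genome, all of which encode subunits of the respiratory chain and ATP synthase. The kidney tubule, above all its proximal part, reabsorbs solutes with energy from mitochondrial respiration and is rich in mitochondria, whereas lymphocytes have fewer.

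The authors compared the libraries within 7 clusters, here called by their labels (Neutro, B, T, Marco, endo, LOH and PT). Genes enter the table for a cluster at a p under 0.05 and an absolute log2 fold change of 0.36 or more, so for a missing member no change can be stated in either sense, and no listed value lies near 0. Which library is the senescent one rests on the labels' descriptions of the table's groups. Adjusted p-values are those of the authors' deposited table and describe spread between cells, not between mice. A member is called here when its adjusted p in the authors' deposited table was at most 0.05 and its absolute log2 fold change at least 1. A marker is listed only where it differed between the libraries, so a count of listed markers does not check a cluster label. Only listed markers could be set beside the labels. These were 14 of 14 macrophage or monocyte markers in Marco, 12 of 13 T or NK cell markers in T, 6 of 9 B or plasma cell markers in B, 17 of 20 proximal tubule markers in PT, 2 of 7 neutrophil markers in Neutro, 1 of 7 thick ascending limb markers in LOH and 1 of 13 endothelial markers in endo. Of the 20 proximal tubule markers, 18 were also listed in LOH and 8 in endo. In Marco 19 were, in T 20, in B 19 and in Neutro 2. All of these were lower in the senescent library. In LOH they summed to 304 (young) and 28.2 (senescent), and in endo to 374 and 48.5. Of 7 thick ascending limb markers, 5 were listed in Marco, 5 in T, 3 in PT and 3 in B. In the young library, proximal tubule markers were high in the clusters of immune cells. The listed proximal tubule markers summed to 849 in Marco, 685 in T and 689 in B in the young library, and to 21.6, 17.3 and 22.3 in the senescent library, while they summed to 931 and 177 in PT. The PT sum does not describe its markers as a whole. Of the 17 listed in PT, 8 were higher and 9 lower, with a median log2 fold change of -0.46 and a lowest of -5.07. The clusters' own markers summed to 54.2 and 453 in Marco, 22.7 and 85.6 in T and 70.8 and 196 in B. The part of these shifts in the results for the 3 immune clusters, LOH and endo was not tested.

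In 6 clusters most listed cytosolic genes had higher means in the senescent library and most listed mitochondrial genes had lower means. The median log2 fold change of the cytosolic set was 0.64 in PT, 0.53 in LOH, 0.67 in endo, 1.18 in Marco, 0.99 in T and 1.10 in B in the authors' deposited table. That of the mitochondrial set was -0.77, -0.51, -0.82, -0.93, -0.80 and -0.94 in the same order. These medians cover listed members only, without values near 0, and the share listed differs between clusters. In PT 40 of the 82 cytosolic genes were not listed, and in LOH 54 of the 76 mitochondrial genes. In endo 74 cytosolic and 65 mitochondrial genes were not listed. For a fixed list of genes, the difference between the sets' medians does not depend on how a library was scaled. Which members pass the listing cut can depend on the scaling, so the difference is not free of it here. The difference was 1.41 in PT, 1.04 in LOH, 1.49 in endo, 2.12 in Marco, 1.78 in T and 2.03 in B. All clusters share the 2 libraries and are not independent of each other.

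**Figure D1:**
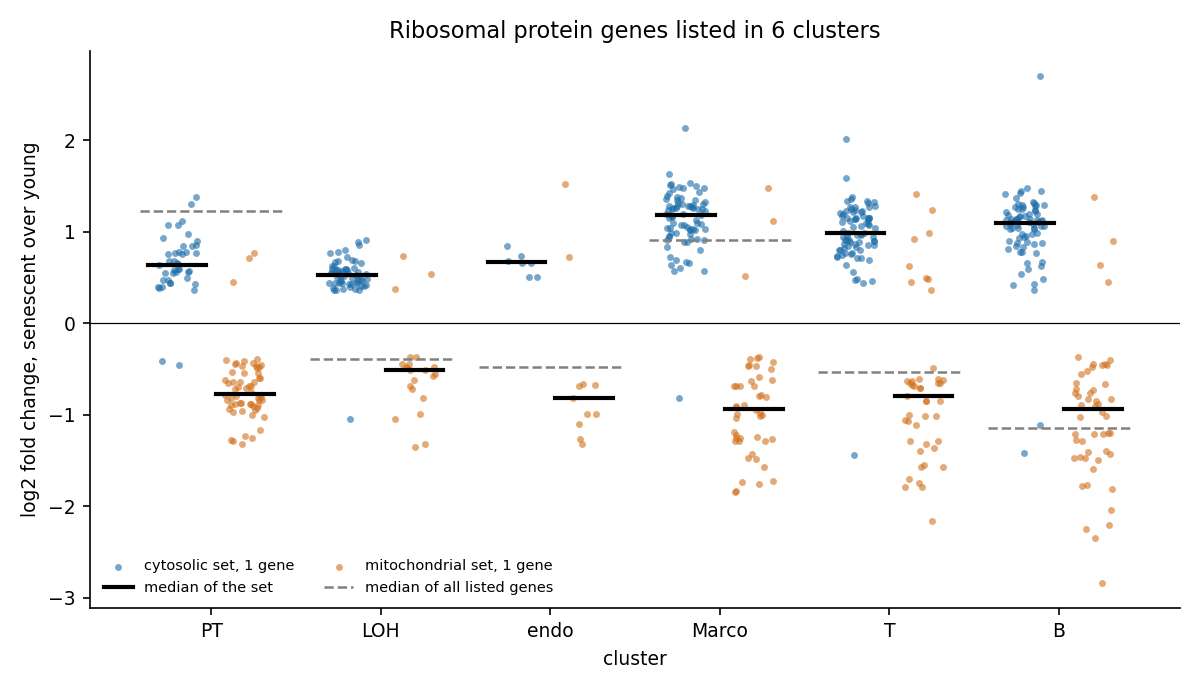
Log2 fold change of each listed member (points, 1 per gene) in 6 clusters, with the median of each set (black bars) and of all listed genes of the cluster (dashed). Cytosolic genes lie above 0 and mitochondrial genes below 0 with few exceptions, and the empty band around 0 comes from the table's listing threshold. Rps27rt in endo, listed at 0 in the young library, is not drawn.

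In PT, 42 of the 82 cytosolic genes were listed and 40 of them (95.2%) were higher in the senescent library, against 78.4% of all 5037 genes listed there. The change was small: 5 of the 42 (11.9%) were called higher in the authors' deposited table, against 57.2% of all listed genes, and the set's median log2 fold change of 0.64 lay under the 1.22 of all listed genes. Relative to that median the cytosolic set was thus lower, by 0.58. The mitochondrial set went against the cluster. Of its 60 listed genes, 57 (95.0%) were lower, against 21.6% of all listed genes, and 8 (13.3%) were called lower in the authors' deposited table, against 5.6% of all listed genes. The young means of the mitochondrial set in PT ranged from 0.231 to 8.22 and the senescent means from 0.214 to 4.41.

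In LOH, 60 of 61 listed cytosolic genes were higher, against 47.8% of all 1761 listed genes. None of the 61 was called higher in the authors' deposited table, in which 2.16% of all listed genes were. The log2 fold changes lay between 0.36 and 0.91, under the threshold of 1, except for Rpl7l1 at -1.05. Of 22 listed mitochondrial genes 19 were lower, against 52.2% of all listed genes, and 0 were called lower in the authors' deposited table, against 6.87%. In endo, all 8 listed cytosolic genes were higher, against 48.2% of all 1028 listed genes, and 9 of 11 listed mitochondrial genes were lower, against 51.8%. None of these 19 members passed the adjusted p of the authors' deposited table, where 0.389% of all listed genes were called higher and 0.584% lower.

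In Marco, 78 of 79 listed cytosolic genes were higher, against 58.3% of all 4462 listed genes, and 56 of them (70.9% of the 79) were called higher in the authors' deposited table, against 22.9%. Of 48 listed mitochondrial genes 45 were lower, against 41.7% of all listed genes. The 13 that were called lower (27.1%) were a share near the background of 23.6% in the authors' deposited table. In T, 79 of 80 listed cytosolic genes were higher (44.8% of all 4368 listed genes were), and 38 (47.5%) were called higher in the authors' deposited table, against 3.85%. Of 45 listed mitochondrial genes in T 36 were lower, against 55.2% of all listed genes, and 15 (33.3%) were called lower in the authors' deposited table, against 20.7%. In B, 76 of 78 listed cytosolic genes were higher (28.2% of all 3077 listed genes were), and 48 (61.5%) were called higher in the authors' deposited table, against 2.79%. Of 52 listed mitochondrial genes in B 48 were lower, against 71.8% of all listed genes, and 9 (17.3%) were called lower in the authors' deposited table, against 15.5%. The share called in B was thus near the background, and the set's median of -0.94 was less negative than the -1.15 of all listed genes.

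The direction of the cytosolic set in the immune clusters depended on the reference it was read against. The median log2 fold change of the clusters' own markers in the authors' deposited table was 2.92 in Marco, 1.91 in T and 1.24 in B, above that of the cytosolic set. Relative to those markers the cytosolic set was lower, by 1.74 in Marco, 0.92 in T and 0.14 in B, and the mitochondrial set by 3.86, 2.70 and 2.18. In PT, where the median of the 17 listed tubule markers was -0.46, the cytosolic set was higher by 1.10 and the mitochondrial set lower by 0.31 relative to them. The distance between the sets is the same under each reference.

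Levels were compared over members that were listed in each of PT, LOH, Marco, T and B. There were 36 such cytosolic genes, all 36 higher in each of the 5 clusters, and 11 such mitochondrial genes, all 11 lower in each. The 36 cytosolic genes summed to 409 (young) and 653 (senescent) in PT, 344 and 521 in LOH, 421 and 1038 in Marco, 699 and 1486 in T, and 704 and 1571 in B. The lymphocyte clusters thus had the highest cytosolic sums in each library, at 171% and 172% of the PT sum among young and at 228% and 241% among senescent cells. Marco had 103% of the PT sum when young and 159% when senescent. The 11 mitochondrial genes summed to 36.9 and 19.0 in PT, 24.6 and 16.1 in LOH, 21.4 and 8.88 in Marco, 20.5 and 8.996 in T, and 23.6 and 8.11 in B. PT had the highest mitochondrial sum in each library. The ratio of the cytosolic to the mitochondrial sum went from 11.1 to 34.3 in PT, a 3.10-fold difference, and from 14.0 to 32.4 in LOH, a 2.31-fold difference. It went from 19.7 to 117 in Marco, from 34.0 to 165 in T and from 29.9 to 194 in B, differences of 5.95-fold, 4.85-fold and 6.48-fold. In all 5 clusters the ratio was higher in the senescent library, which follows from the directions of these 36 and 11 genes. Members not listed in every one of the 5 clusters are outside the sums. The sizes of these differences therefore do not describe the whole sets. Beside it, the listed proximal tubule markers are given as a median percentage of their level in PT. That was 111 (young) and 8.75 (senescent) in Marco, 90.7 and 7.42 in T and 67.8 and 7.62 in B. In LOH it was 43.9 and 14.0. The sum of the 11 mitochondrial genes was 58.1% (young) and 46.7% (senescent) of the PT sum in Marco, 55.6% and 47.3% in T, and 63.8% and 42.6% in B. Over all mitochondrial members listed both in PT and in the cluster, the median percentage of the PT level was 65.5 and 61.7 in Marco (38 genes), 61.0 and 62.6 in T (36 genes) and 69.3 and 58.3 in B (45 genes).

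**Figure D2:**
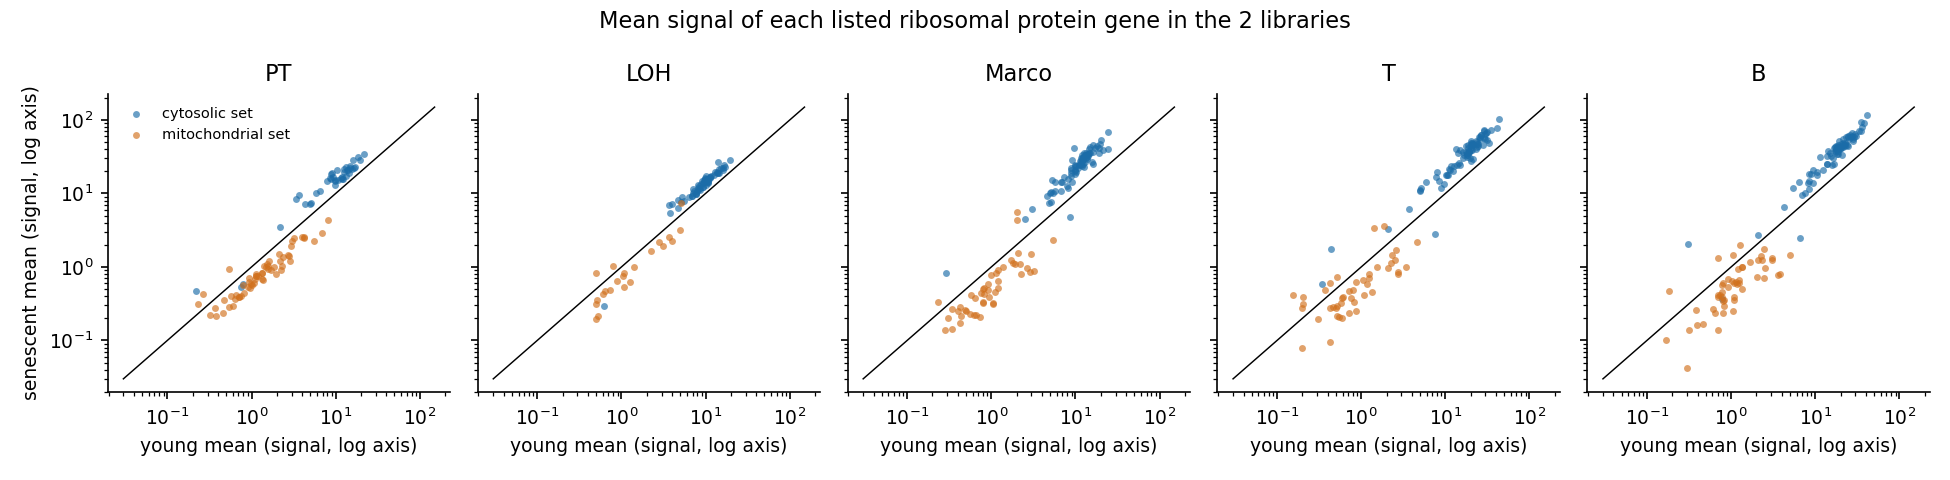
Young mean against senescent mean (log axes, authors' signal) for each listed member in 5 clusters, with the line of equal means. The cytosolic genes form a band above the line and the mitochondrial genes a lower-level band under it, and the distance between the bands is wider in Marco, T and B than in PT and LOH.

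**Figure D3:**
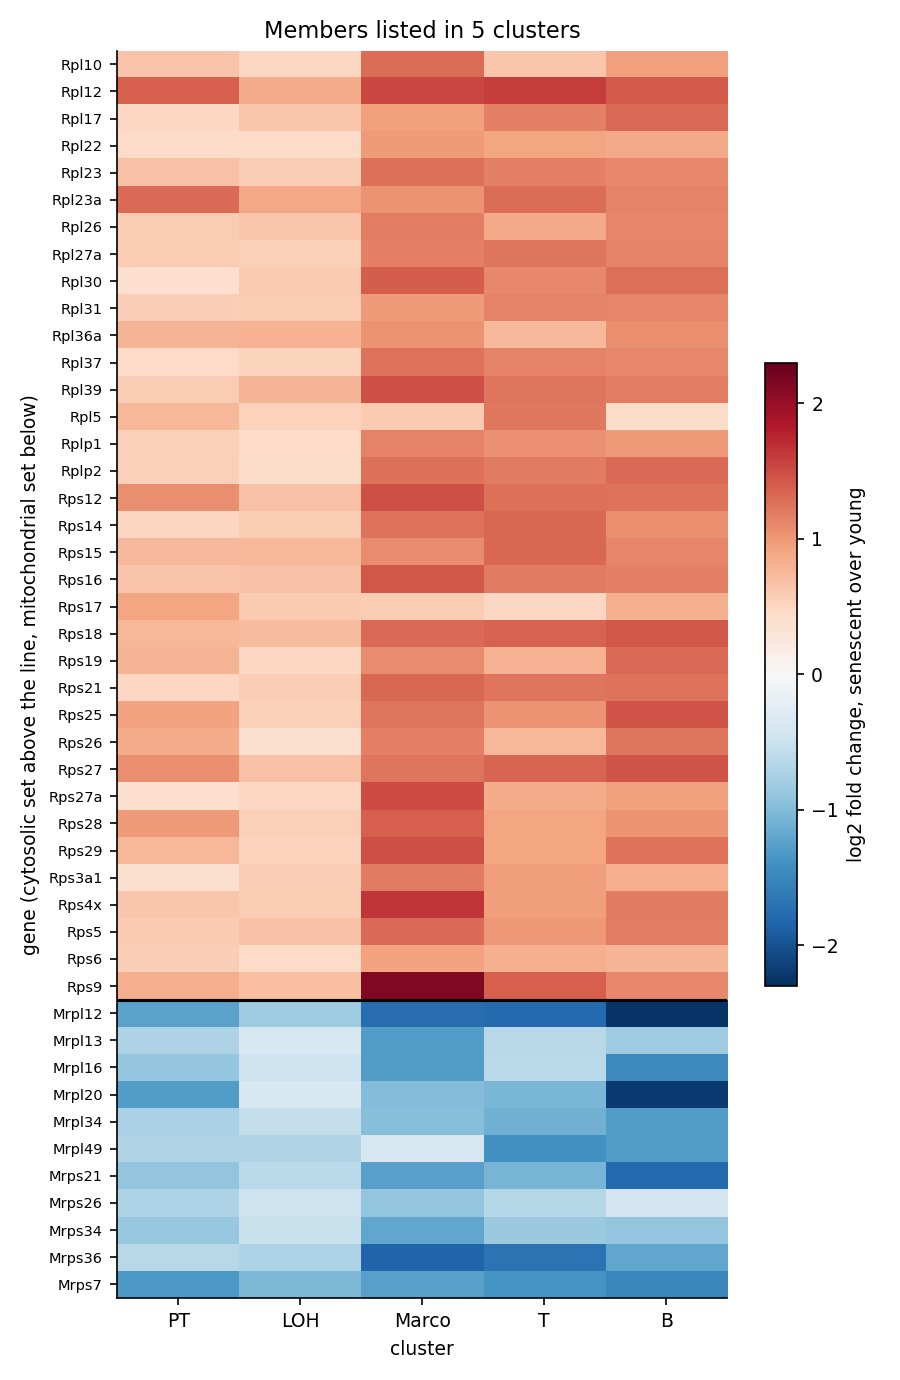
Log2 fold change of cytosolic (above the line) and mitochondrial genes (below it) that were listed in each of 5 clusters, with 1 cytosolic gene not drawn. All cytosolic genes drawn are higher and all 11 mitochondrial genes are lower in the senescent library in every column.

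Among cytosolic proteins, 7 genes were listed in all 6 clusters other than Neutro, among them Rps9, Rps16 and Rps19. Rps9, a small subunit protein near the mRNA entry channel, had young and senescent means of 8.71 and 15.6 in PT, 9.11 and 14.8 in LOH, 10.8 and 17.04 in endo, 9.53 and 41.9 in Marco, 14.9 and 38.8 in T, and 20.6 and 44.4 in B. Its 4.40-fold difference in Marco was the largest of the set there, whereas in the other clusters it lay between 1.58-fold and 2.60-fold. Rps16, a small subunit protein, had means of 12.5 and 19.8 in PT, 13.2 and 35.6 in Marco, and 25.6 and 58.6 in T. Rps19, whose human counterpart is mutated in Diamond-Blackfan anaemia, had means of 13.3 and 23.0 in PT, 22.8 and 40.0 in T, and 24.6 and 60.8 in B.

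Rpl12, at the base of the stalk that recruits translation factors, was among the 3 highest log2 fold changes past the adjusted p in PT, LOH, Marco and T. Its means were 3.64 and 9.48 in PT, 4.0 and 7.23 in LOH, 5.31 and 15.4 in Marco, 13.5 and 40.6 in T and 14.1 and 37.5 in B. Rpl23a, at the exit of the peptide tunnel, had means of 3.41 and 8.45 in PT and 3.72 and 6.90 in LOH. Rps4x, an X-linked small subunit protein, had means of 9.11 and 28.3 in Marco, a 3.11-fold difference, and 9.78 and 15.2 in PT. Rps18 had means of 20.1 and 51.3 in T. In B the largest differences among members past the adjusted p were in Rps24 (41.6 and 116), Rps25 (11.5 and 31.5) and Rps27 (34.7 and 94.6).

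The stalk proteins had higher means wherever they were listed, without passing the adjusted p for Rplp1 in LOH and for Rplp0 in LOH and T. Rplp1 had means of 19.5 and 28.5 in PT, 16.9 and 23.0 in LOH, 19.0 and 41.6 in Marco, 34.9 and 72.6 in T, and 30.4 and 59.8 in B. Rplp2 had means of 10.5 and 15.4 in PT and 17.8 and 43.9 in B, and Rplp0, the scaffold of the stalk, of 11.7 and 24.1 in Marco and 21.4 and 29.8 in T. Rpl5 and Rpl11, which carry the 5S rRNA and bind the p53 regulator Mdm2 when ribosome assembly stalls, were also higher. Rpl5 had means of 4.30 and 7.31 in PT, 4.80 and 7.32 in Marco and 5.16 and 11.99 in T, and Rpl11, not listed in PT or LOH, of 12.4 and 25.1 in Marco and 17.4 and 37.1 in T. Rps27a, which is made as a fusion with ubiquitin, had means of 17.2 and 22.6 in PT and 15.1 and 42.7 in Marco. Rps6, the target of the S6 kinases, had means of 5.05 and 7.45 in PT and 8.33 and 14.7 in T. Only 7 entries of 3 cytosolic genes went the other way in the 6 clusters, 4 of them past the adjusted p of the authors' deposited table.

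These 3 genes were Rps27l, Rpl7l1 and Rps19bp1. Rps27l is a paralog of Rps27 whose transcription is induced by p53. It was listed in the 3 immune clusters only, with young and senescent means of 8.53 and 4.86 in Marco, 7.59 and 2.81 in T and 6.64 and 2.49 in B. It was therefore 1.76-fold lower in Marco and 2.70-fold lower in T, past the adjusted p of the authors' deposited table, while its value in B did not pass. Rps27 itself was higher in the same clusters, at 13.6 and 31.8 in Marco and 28.5 and 72.1 in T. Rpl7l1, a factor of large subunit assembly, had means of 0.787 and 0.589 in PT, 0.616 and 0.297 in LOH and 0.784 and 0.363 in B, and passed in PT only. Rps19bp1, which binds Rps19 and is not a ribosomal subunit, had means of 0.741 and 0.539 in PT and, without passing, 0.345 and 0.587 in T. In the reference annotation (GRCm38, the assembly that mm10 names), Rps27l lies on chromosome 9 from 66944624 to 66949522, Rps27 on chromosome 3 from 90212667 to 90213648 and Rps27rt on chromosome 9 from 114982366 to 114982739. All 3 are annotated as protein coding, and the values are for whole genes.

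Rps27rt is a retrotransposed copy of Rps27, so reads may have been split between them and its values are uncertain. It was listed at 0.217 and 0.472 in PT, 0.292 and 0.838 in Marco, 0.437 and 1.76 in T and 0.311 and 2.03 in B, and in endo at 0 (young) and 0.552 (senescent). Only the PT value passed the adjusted p of the authors' deposited table. Rpl22l1, a paralog of Rpl22, had means of 3.03 and 6.24 in Marco, 4.95 and 10.9 in T and, without passing, 6.99 and 9.40 in B. Processed pseudogenes, left out by the rule, were listed in 5 entries and were higher in each. Rpl10-ps3 had means of 0.205 and 0.429 in PT and 0.186 and 0.665 in Marco. Of the ribosomal proteins whose symbols the rule does not match, Fau had means of 24.5 and 77.3 in Marco, 34.8 and 83.4 in T and 41.0 and 112 in B, and Rack1, a scaffold of the small subunit, had means of 5.09 and 7.84 in PT and 5.59 and 13.3 in Marco.

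**Figure D4:**
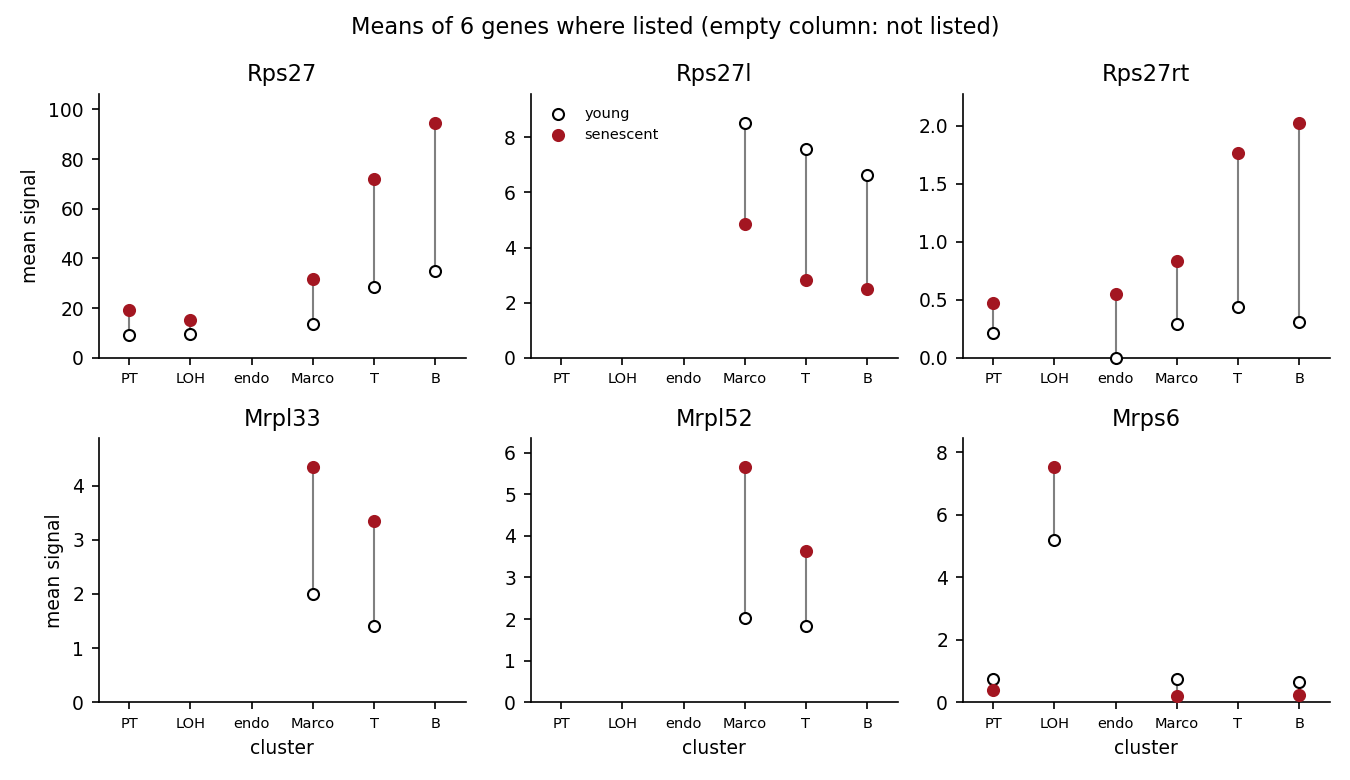
Mean signal (vertical axis, from 0, a separate scale per gene) in the young (open points) and senescent library (filled points) for 6 members in the clusters that list them. Rps27l is lower in 3 clusters where Rps27 and Rps27rt are higher, Mrpl33 and Mrpl52 are higher in Marco and T, and Mrps6 is higher in LOH and lower in PT, Marco and B.

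In the mitochondrial set, Mrpl12, the stalk protein of the large subunit, was among the 3 lowest log2 fold changes past the adjusted p in LOH, Marco, T and B. Its young and senescent means were 6.82 and 2.90 in PT, 4.04 and 2.29 in LOH, 2.88 and 0.854 in Marco, 3.40 and 0.985 in T, and 3.82 and 0.801 in B. In B it was 4.76-fold lower, and it was the only mitochondrial member past the adjusted p in LOH in the authors' deposited table. Mrpl20, an rRNA-binding protein of the large subunit, had means of 5.48 and 2.24 in PT, 2.98 and 1.49 in Marco, 2.55 and 1.23 in T, and 3.57 and 0.773 in B. It was listed in all 6 clusters, as was Mrpl16, with means of 0.968 and 0.520 in PT and 1.17 and 0.544 in endo. Mrps7, a small subunit protein that binds the rRNA of the decoding head, had the lowest log2 fold change in PT, with means of 1.98 and 0.794, and means of 1.27 and 0.615 in LOH, 0.938 and 0.393 in Marco, 1.07 and 0.415 in T and 1.08 and 0.385 in B. Mrps18a had means of 2.22 and 0.918 in PT and Mrps21 of 8.22 and 4.41 in PT and 5.47 and 2.31 in Marco. In B, Mrpl14 had means of 2.48 and 0.709. In T, Mrpl42 had means of 2.71 and 0.808 and Mrpl50 of 0.861 and 0.248. Mrps36, which is also known as a subunit of the 2-oxoglutarate dehydrogenase complex, had means of 3.19 and 0.895 in Marco. Mrpl12 lies on chromosome 11 from 120484637 to 120488754 and Mrps7 on chromosome 11 from 115604140 to 115608036.

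Entries against the direction of the mitochondrial set numbered 24, from 20 genes, and 7 of them passed the adjusted p of the authors' deposited table. Mrpl33 and Mrpl52, small proteins of the large subunit, each passed in Marco and in T. Mrpl52 had means of 2.02 and 5.64 in Marco, a 2.79-fold difference, and 1.84 and 3.64 in T. Mrpl33 had means of 2.00 and 4.34 in Marco, a 2.17-fold difference, and 1.41 and 3.34 in T. Neither gene was listed in PT, LOH, endo or B. The other 3 that passed were in PT and had low means: Mrps5 at 0.547 and 0.932, Mrpl1 at 0.264 and 0.435 and Mrpl19 at 0.231 and 0.316. In PT the median young mean of the 3 higher mitochondrial genes was 0.264 and that of the 57 lower ones 1.32.

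Mrps6 stood apart by its level in LOH, the highest of the listed mitochondrial genes there in each library. Its direction was not particular to it, as Mrps5 and Mrps18c were also higher in LOH, without passing the adjusted p. Mrps6 had means of 5.18 and 7.51 in LOH, without passing the adjusted p of the authors' deposited table. Its young mean was 0.747 in PT, 0.739 in Marco and 0.641 in B. The senescent means there were 0.406, 0.205 and 0.238, and the value in B did not pass. The gene lies on chromosome 16 from 92058336 to 92112227 and overlaps Slc5a3, which encodes a sodium-dependent inositol transporter of the hypertonic medulla and spans 92058322 to 92087473. Slc5a3 was listed in LOH alone, with means of 3.94 and 6.34. Reads of the overlapping genes may not have been told apart, so the LOH values of Mrps6 are uncertain. In all, 19 of the 76 mitochondrial and 12 of the 82 cytosolic genes overlap another protein-coding gene of the reference annotation, and whether reads were counted by strand is not stated. Of the genes with values above, Rpl5, Rpl23a, Rps25, Rps27a, Rps27rt, Mrpl14, Mrpl19, Mrps7 and Mrps18a are among them, so their values carry the same uncertainty.

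Both subunits of each ribosome lay on the same side of 0. For the large and small cytosolic subunits the median log2 fold change in the authors' deposited table was 0.58 and 0.76 in PT, 0.48 and 0.58 in LOH, 1.04 and 1.28 in Marco, 1.06 and 0.96 in T, and 1.07 and 1.15 in B. For the large and small mitochondrial subunits it was -0.70 and -0.86 in PT, -0.53 and -0.50 in LOH, -0.74 and -1.22 in Marco, -0.85 and -0.75 in T, and -0.93 and -1.05 in B. All 16 small subunit genes listed in Marco were lower, and all 12 large subunit genes listed in LOH. In Marco the middle 50% of cytosolic genes lay between 0.98 and 1.31 in log2 fold change and that of mitochondrial genes, more widely, between -1.27 and -0.61. In PT the ranges were about equally wide, from 0.48 to 0.83 and from -0.89 to -0.54. Within the cytosolic set, genes at a higher level had higher log2 fold changes in Marco (Spearman's rho 0.44 across 79 genes), T (0.30, 80 genes) and B (0.46, 78 genes) but not in PT (-0.21, 42 genes) or LOH (0.04, 61 genes). These genes share the same cells and libraries and are not independent.

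Other genes of translation were read from lists chosen by function. Their counts are read against all listed genes, of which 78.4% were higher in PT, 58.3% in Marco, 44.8% in T and 28.2% in B. Of 39 initiation factors, 20 were higher and 5 lower in PT, 21 and 1 in Marco, 18 and 3 in T and 14 and 2 in B, with median log2 fold changes of 0.95, 0.80, 0.61 and 0.67 in the authors' deposited table. Their share higher in PT was thus near that of all listed genes. Past both thresholds there were 11 higher and 1 lower of 25 in PT, where 57.2% of all listed genes were called higher and 5.6% lower. In Marco 6 of 22 were called higher (22.9% of all), in T 1 of 21 (3.85% of all) and in B 0 of 16 (2.79% of all). Eif3a, a core subunit of initiation factor eIF3, had means of 0.308 and 1.45 in PT, and Eif5a, a factor that relieves stalled ribosomes, of 6.14 and 2.77. All listed elongation and release factors were higher in Marco (5), T (7) and B (5), and 6 of 7 in PT. Those called higher in the authors' deposited table were 3 in PT, a smaller share than the 57.2% of all listed genes. In Marco 0 of 5 were called higher (22.9% of all), in T 2 of 7 (3.85% of all) and in B 0 of 5 (2.79% of all). Eef2, the translocase of the cytosolic ribosome, had means of 1.74 and 3.77 in PT, 2.50 and 3.998 in Marco, and 2.26 and 5.70 in T. Among ribosome biogenesis factors, 17 of 20 were higher in PT, 11 of 13 in Marco, 14 of 14 in T, 4 of 8 in B and 2 of 5 in LOH. In PT 14 of the 20 were called higher, against 57.2% of all listed genes, and 1, Nhp2, was called lower (2.27 and 0.658), whereas in Marco 1 was called higher and in T and B 0 were, in the authors' deposited table. Npm1, a nucleolar chaperone of ribosome assembly, had means of 2.65 and 5.03 in Marco and 4.19 and 8.10 in T.

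Of 13 ribosome-associated factors, such as Nsa2 of large subunit assembly (0.720 and 2.54 in PT, 2.13 and 5.28 in Marco), 5 were higher and 4 lower in PT, a smaller share higher than the 78.4% of all listed genes, and 11 were higher and 1 lower in Marco, against 58.3% higher of all. Ybx1, an mRNA-binding protein, was the lower gene in Marco (9.21 and 6.12) and T (10.4 and 5.21). Mitochondrial translation factors, which serve the mitochondrial ribosome but are not part of it, were lower in all 7 listed members in Marco, all 6 in B, all 3 in LOH and 4 of 5 in T, where 41.7%, 71.8%, 52.2% and 55.2% of all listed genes were lower. Past both thresholds, 1 of the 7 was lower in Marco (Lrpprc, 0.454 and 0.120), against 23.6% of all listed genes. In T 1 of 5 was (Tsfm, 0.857 and 0.290), against 20.7%. In B and LOH 0 were, against 15.5% and 6.87%. In PT 3 were higher and 2 lower, a smaller share higher than the 78.4% of all listed genes, with the initiation factor gene Mtif2 at 0.0768 and 0.254, Lrpprc at 0.219 and 0.387 and the elongation factor gene Tsfm at 0.923 and 0.630. Of the transcripts of the mitochondrial genome that these ribosomes translate, PT had 6 lower and 3 higher, whereas all 13 listed in Marco, all 13 in T and all 12 in B were lower. Their medians were -0.62, -2.92, -2.06 and -1.29 in the authors' deposited table. The listed transcripts summed to 771 (young) and 482 (senescent) in PT, where 9 were listed. Their sums were 2273 and 361 in Marco, 1505 and 379 in T, and 1138 and 539 in B. These transcripts are also a marker of RNA quality. The part of this shift in the results for the immune clusters was not tested.

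**Figure D5:**
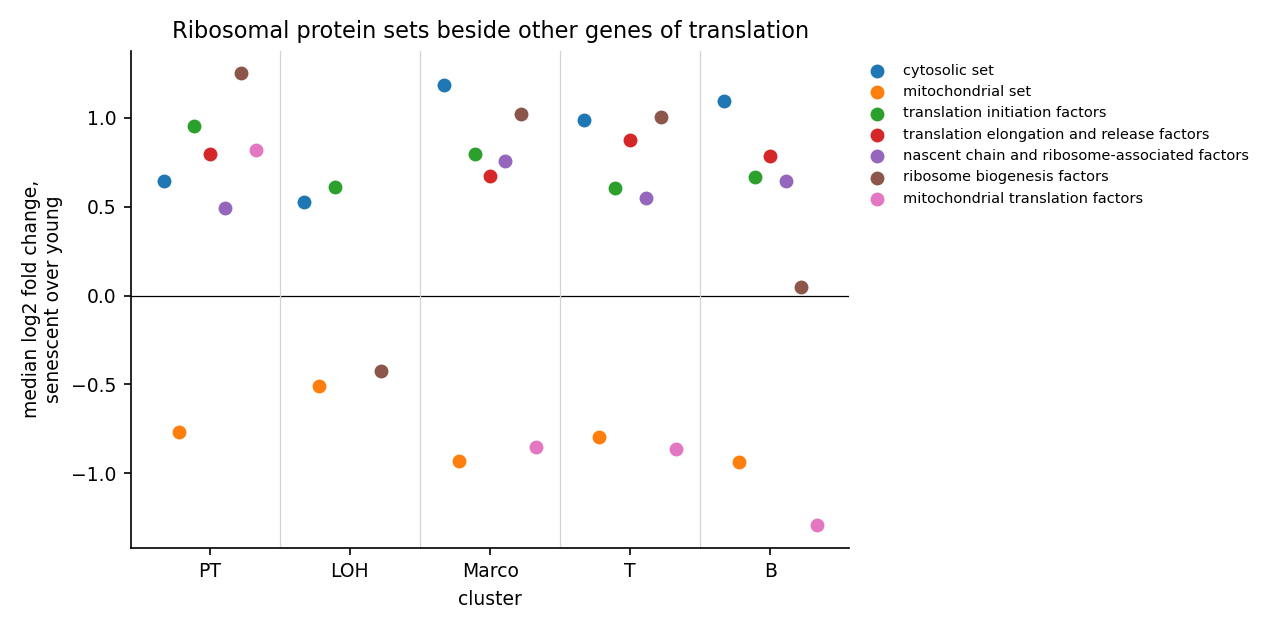
Median log2 fold change, senescent over young, of both ribosomal protein sets and of 5 lists of other translation genes in 5 clusters, drawn where a list had at least 5 listed members. Initiation and elongation factors lie above 0 with the cytosolic set wherever they are drawn, while mitochondrial translation factors lie below 0 in Marco, T and B and above 0 in PT.

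Regulators of translation were listed in small numbers, and in PT 8 of 9 were higher, 7 of them past both thresholds, where 78.4% of all listed genes were higher and 57.2% were called higher. They included Larp1, a repressor of ribosomal protein mRNAs (0.219 and 0.764), the S6 kinase gene Rps6kb1 (0.120 and 0.476) and Sesn2, an inhibitor of mTOR signalling (0.0966 and 0.504). In LOH 3 of 3 were higher, against 47.8% of all listed genes, and in T 2 of 3, against 44.8%. In B 2 of 2 were lower, against 71.8%. None was called in LOH, T or B. Of all listed genes, 2.16%, 3.85% and 2.79% were called higher there and 6.87%, 20.7% and 15.5% lower. In Marco 6 of 8 were higher and 2 lower, where 58.3% of all listed genes were higher. Of the 8, 2 were called higher and 1 lower in the authors' deposited table, against 22.9% and 23.6% of all listed genes. These were the kinase gene Rps6ka1 (0.117 and 0.819), Eif4ebp1, which restrains cap-dependent initiation (0.292 and 1.48), and, as the lower one, Mtor (0.386 and 0.102).

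The sets also differed in gene structure. Of the 82 cytosolic genes, 29 (35.4%) hold at least 1 annotated small nucleolar RNA within their span, 57 in all, against 1 of the 76 mitochondrial genes (1.32%) and 1.70% of 21900 protein-coding genes. Rpl4 holds 5, and Rpl7a and Rpl13a hold 4 each. The median span was 3170 bases for cytosolic and 7691 bases for mitochondrial genes, against 17146 for all protein-coding genes. Their position is spread over 19 and 17 chromosomes, with 4 cytosolic and 0 mitochondrial genes on chromosome X. In PT, longer cytosolic genes had lower log2 fold changes (Spearman's rho -0.44 across 42 genes), and for mitochondrial genes rho was 0.08 across 60. The cytosolic rho was weaker elsewhere, at -0.32 in LOH, -0.20 in Marco, -0.11 in T and -0.15 in B. For mitochondrial genes it was 0.26 in LOH, -0.31 in Marco, 0.18 in T and -0.16 in B. In the deposited annotation, 131 listed genes belong to the KEGG ribosome pathway, of which 80 were in the cytosolic and 43 in the mitochondrial set.

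In Neutro, 1 cytosolic and 4 mitochondrial genes were listed, all lower, as were 93.7% of the 378 genes listed there, with 6.35% higher. Rpl36al, a paralog of Rpl36a, had means of 7.87 and 1.06, while in Marco it was higher at 5.08 and 7.57. Mrpl15, Mrpl39, Mrps5 and Mrps25 had young means of 2.32, 1.12, 1.12 and 1.12 and senescent means between 0.00740 and 0.0770. The smallest young mean above 0 in Neutro was 1.07, so 3 of the 4 lay just above the floor of the young values, and none of the 5 passed the adjusted p of the authors' deposited table.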

How the data were processed

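Cell Ranger 2.1.1 and the build mm10 are named per the submitters' processing notes. Cell filters, doublet handling, clustering, scale factor and test were, in the sources used here, not given. The deposited table holds a mean signal per cell for each group, assigned to the libraries by the labels' descriptions. The deposited log2 fold changes equal the log2 of senescent over young after adding 0.0001 to each mean, within 0.01 for all 591 entries of members. The deposited p-values all lie under 0.05, and the median ratio of adjusted p to p is about 32574. Depth is unknown, so no interval was computed.

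Computed here were counts, ratios of means, sums and medians of log2 fold changes with Python 3.11.15, numpy 2.4.6, pandas 2.3.3 and matplotlib 3.10.9. The calculations were tested on simulated data. No test between groups was run, with 1 library each. Named genes were, per set and cluster, the 3 most changed in each direction past the adjusted p with a mean of at least 0.1, members listed in 6 clusters, members against their set's majority and role lists (stalk, 5S, ubiquitin-fused, paralogs), and up to 3 per list of other translation genes. Rps6, Mrps21, Mrpl39, Mrps25, the genes named for small nucleolar RNAs, Slc5a3 and the pseudogenes, and some values given for other clusters of a named gene, were chosen after their values were seen. Members and lists were chosen with earlier results of these data known. All 158 symbols matched the RefSeq annotation GRCm38.p6, which gave positions. Values of 1 cytosolic gene are not reported here, although it is in the counts, sums and medians. The planned promoter and protein sequences were not analysed here. Alternatives were other thresholds, pseudocounts, centrings and memberships.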

Additional observations from a re-analysis of the deposited data

Results flagged for a closer look

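Over the 6 clusters other than Neutro, 17 of the 158 genes were higher in the senescent library in 1 cluster and lower in another, 16 of them mitochondrial. Outside this count, Rpl36al was higher in Marco (5.08 and 7.57) and lower in Neutro (7.87 and 1.06). With 1 library per group, none of these differences between clusters was tested. Only Mrpl1 passed the adjusted p of the authors' deposited table in both directions, higher in PT (0.264 and 0.435) and lower in T (0.707 and 0.238), a difference of 2.28 in log2 fold change. Mrps6, which overlaps Slc5a3, was higher in LOH and lower in Marco, a difference of 2.38. Mrps5 was higher in PT and lower in Marco (0.649 and 0.373), a difference of 1.57.

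Genes higher in T were Mrps9 (difference from Marco 2.41), Mrpl48, Mrpl46, Mrpl11 and Mrpl27 (differences from B 2.13, 2.09, 1.28 and 1.21), and Mrps10, Mrps23 and Rps19bp1 (differences from PT 1.45, 1.37 and 1.23). Genes higher in B were Mrpl9 (difference from Marco 2.28), Mrpl15 and Mrps16 (differences from PT 1.73 and 1.30). Mrps18c was higher in LOH (difference from B 1.57), Mrpl40 in Marco (difference from PT 1.44) and Mrpl50 in endo (difference from T 2.52). None of the higher values in this paragraph passed the adjusted p of the authors' deposited table. Apart from Mrpl15, Mrpl50, Mrps16 and Mrps18c, each of the higher values had a senescent mean of at most 0.729.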

How the results depend on the processing

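With 1 library per group no replicate could be left out. No paired analysis was possible because each group has a single library. Among recomputed counts, medians and differences of medians, 203 kept their direction and stayed within 1.5 times (medians within that factor), 42 moved further and 5 changed sign. Part of the 203 could not have moved. Centring cancels in a difference of medians, and leaving out Rps19bp1 and Rpl7l1 leaves the mitochondrial set as it was. For named genes with a pseudocount of 1, 175 values stayed within that factor, 47 moved further and 0 changed sign.

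Counts depended on the fold threshold. Without it, cytosolic genes called higher numbered 40 in PT, 36 in LOH and 71 in T, and mitochondrial genes called lower 57 in PT and 1 in LOH. At an absolute log2 fold change of 1.5 the cytosolic counts were 0 in PT, 4 in Marco, 1 in T and 0 in B, and the mitochondrial counts 0 in PT, 6 in Marco, 7 in T and 5 in B. With the fold alone, 1 cytosolic gene in endo and 3 (LOH), 3 (endo), 20 (Marco) and 25 (B) mitochondrial genes were counted, and at an adjusted p of 0.01 the authors' deposited table gave 5 in B.

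Centred on all listed genes, the cytosolic median was -0.58 in PT (a change of sign), 0.28 in Marco and 2.24 in B, and the mitochondrial median -1.99 in PT, -1.84 in Marco and 0.21 in B (a change of sign). Centred on the clusters' own markers, the cytosolic median was -1.74 in Marco, -0.92 in T and -0.14 in B, all changes of sign, and the mitochondrial median -3.86, -2.70 and -2.18. LOH and endo had too few listed markers for this. The difference between the sets kept its sign in every alternative, although the centrings cannot change it. With a pseudocount of 1 the mitochondrial median in Marco was -0.28 and the difference 1.40 in Marco and 1.40 in B. Over members past the adjusted p only, the mitochondrial median in B was -1.54 and the difference 2.69. A mean in place of the median gave 2.13 for the cytosolic set and 2.70 for the difference in endo, where Rps27rt is listed at 0 in the young library. Leaving out Rps19bp1 and Rpl7l1 or, chosen after seeing the data, Mrps36 moved no value by that much.

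With a pseudocount of 1, chosen after seeing the data, medians were 0.21 (PT), 0.31 (Marco) and 0.36 (T) for ribosome biogenesis factors, 0.13 (PT), -0.21 (Marco), -0.11 (T) and -0.21 (B) for mitochondrial translation factors, and 0.20 (PT) and 0.31 (Marco) for regulators of translation. Apart from the values whose setting is a centring, a filter or a mean, the cause was not tested. Depth is unknown, so what it limits could not be computed.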
